A study of Homo sapiens with 9 samples.

Results

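Cells expressing the p53 mutants G245S and R273H were treated as 1 group of 6 RNA-seq libraries and set against cells expressing WT p53. The members were chosen by label alone, as the 3 replicates of each mutant line and the 3 of the WT line, which are all 9 libraries of the series. The cells were HEK293T, a human embryonic kidney line that the labels also call HEK293, infected with lentivirus and kept under puromycin, so every group, the WT control included, carried an integrated p53 transgene and the selection. There was 1 stable line for each p53 form. The comparison therefore sets 2 mutant lines against 1 WT line, and the p53 form and the line cannot be told apart. The series holds no line without a p53 transgene, so fell, rose, lower and higher are all relative to the WT line. A fall in the mutants and a rise caused by the WT transgene cannot be told apart here. The question was which genes changed in common in the mutants once both were counted as 1 group, with and without the shallow WT replicate 3.

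p53 is a transcription factor that binds DNA as a tetramer and switches on genes for cell cycle arrest, apoptosis, DNA repair and metabolism, among them its own inhibitor MDM2. R273H changes a residue that touches DNA, and G245S changes one that holds the DNA-binding surface in shape, so they stand for the contact and the structural class of cancer mutations. A mutant subunit can enter a tetramer with a normal one, which is how a mutant can act on the normal protein. HEK293T cells carry the SV40 large T antigen, which binds p53 and holds back much of its activity.

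The 6 mutant libraries held between 7325514 and 9667306 counts, WT replicates 1 and 2 held 8934681 and 7683597, and WT replicate 3 held 1486315. Levels are given as CPM, counts scaled for sequencing depth with TMM factors, and a value below 3 counts was taken as under the floor. For the 8 deeper libraries this floor lay between 0.305 and 0.408 CPM, and for WT replicate 3 at 2.09 CPM, for counting error only. WT replicate 3 also stood apart in what it contained. Keratin KRT19 was at 33.5 CPM there and between 0.257 and 1.36 in the other 8 libraries. KRT8 was at 54.4 against 9.62 to 12.1, and KRT18 at 160 against 58.6 to 68.6. The epithelial adhesion protein EPCAM was at 14.0 against 0.736 to 3.40. In all, 29 genes reached 10 CPM in WT replicate 3 while staying under 1 CPM in each of the other 8 libraries, and no other library had any such gene. Those named here were picked after seeing their levels and include the prostate proteases KLK2 (64 counts against 4 in the other 8 libraries together) and KLK3 (25 against 0), the myeloid protease CTSG (26 against 0) and the liver-made inhibitor SERPIND1 (50 against 0). These are transcripts that the labelled cell line does not otherwise show here. None of the genes called below was among the 29, and the part of this RNA in the results with 3 WT libraries was not tested. Of 12 markers fixed for epithelial and HEK293 cells, VIM, CDH2, NEFM, NEFL and KRT18 were at 43.3 CPM or more in all 9 libraries. INA ran from 7.58 to 11.6 CPM, PAX2 from 2.18 to 4.86 and CDH1 from 0.681 to 3.49. The kidney factor PAX8 held 3 counts in all. Of 16 markers of other cell types, CD3E, ITGAM and PECAM1, which mark T cells, myeloid cells and vessels, held 0, 1 and 1 counts in all 9 libraries together, and 5 were high enough to be tested. The main fit used WT replicates 1 and 2, and for the called genes and most gene lists the pooled values with all 3 are given as well.

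With 6 mutant and 2 WT libraries, 31 of 16398 genes had an adjusted p under 0.05 in the quasi-likelihood test of edgeR (Benjamini-Hochberg over all genes tested), which is 0.189% of the genes tested. Of these, 27 were lower in the mutants (0.165%) and 4 higher. With all 3 WT libraries, 31 of 16156 genes passed (0.192%), 28 lower and 3 higher, and 28 genes passed in both fits with the same sign. In the called genes the median size of the change was 0.803 on the log2 scale, and 13 exceeded 1. At an unadjusted p under 0.05 there were 1155 genes where 820 would be expected with no change, 640 of them lower and 515 higher. Fitted alone, G245S gave 20 called genes (0.126% of 15893) and R273H 22 (0.137% of 16022), with a median standard error of 0.123 and 0.122 over the 31 genes, against 0.103 in the pooled fit. Of the 31 genes, 18 were also called in both single-mutant fits, 4 in one of them and 9 in neither. All these fits share the WT libraries. All 31 genes had the same sign in both mutants, and in all 31 the 6 mutant libraries lay on 1 side of WT replicates 1 and 2, which held for 8.85% of all genes tested. The 31 genes were picked by the pooled test on these same libraries. Both counts therefore largely follow from that choice and are not separate evidence of a change.

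Of the 118 tested p53 target genes, 15 fell and none rose (17 and none with 3 WT libraries), and 94 of the 118 (79.7%) were lower by sign, against 8194 of all 16398 genes tested. Their median log2 fold change was −0.19, with 2 and with 3 WT libraries, where the median of all genes was 0.00. In 41 of the 118 genes all 6 mutant libraries lay below both fitted WT libraries, and in 0 of them above, against 754 below and 698 above among all 16398 genes. The calls were spread unevenly over the roles. Genes of apoptosis and death receptors held 8 of the 15 called genes, out of 20 tested, with a median of −0.38 (−0.39 with 3 WT libraries). The feedback genes held 2 of 8 (median −0.26, and −0.19 with 3 WT libraries), metabolism, redox and autophagy 3 of 24 (−0.19 and −0.17), DNA repair 1 of 10 (−0.15 in both) and other targets 1 of 36 (−0.17 and −0.15). Cell cycle arrest held 0 of 13, with a median of −0.18 that became −0.43 with WT replicate 3 added, so the order of the list medians turns on that library. Of the arrest genes 5 were lower at an unadjusted p under 0.05, DESeq2 called 0 and edgeR's exact test 1 (GADD45A). The 7 noncoding RNAs of the list had a median of 0.01 and no call, and −0.15 with 1 call (MIR34AHG) when WT replicate 3 was added. With 2 WT libraries there were 2 at an unadjusted p under 0.05, and MIR34AHG was called by DESeq2 and the exact test. These lists were chosen with earlier results of the same libraries known, and the differences between roles were not tested.

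**Figure D1:**
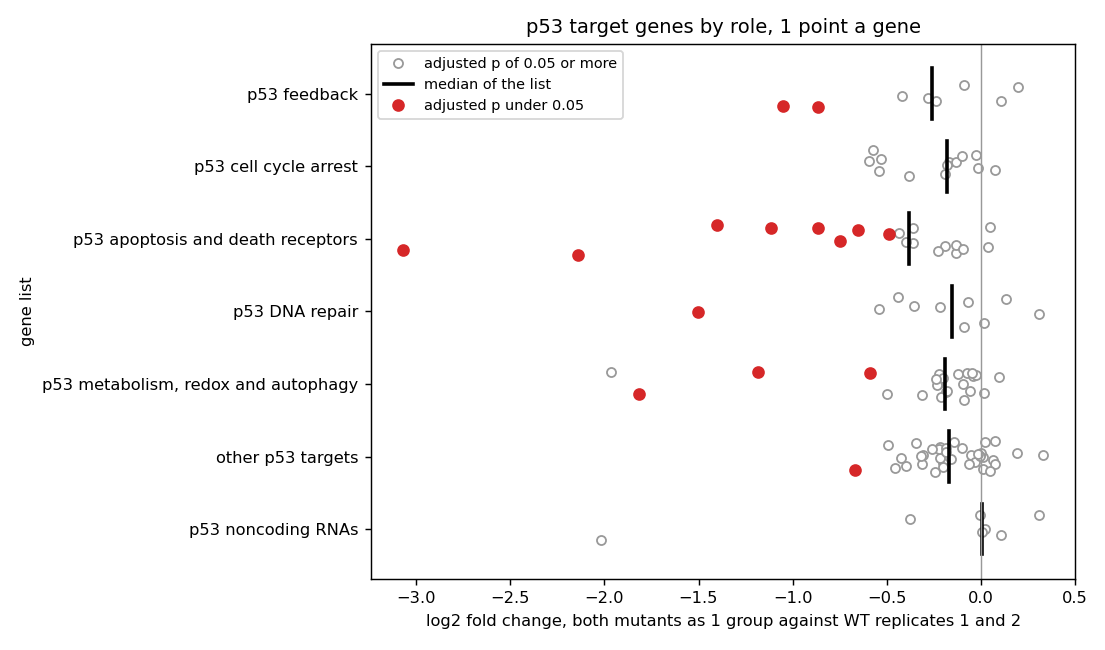
Log2 fold change of both mutants as 1 group against WT replicates 1 and 2 (horizontal axis) for the 118 tested p53 target genes, in 7 lists by role (vertical axis), 1 point a gene, with the median of each list as a bar. Filled points have an adjusted p under 0.05: all 15 lie to the left of 0, and 8 of them are in the list of apoptosis and death receptors.

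Among the feedback genes, MDM2, the ubiquitin ligase that marks p53 for breakdown, was at 79.0 and 84.3 CPM in WT replicates 1 and 2 and at 65.6 in replicate 3. The mutant libraries ran from 41.8 over a median of 45.0 to 47.1 CPM, below all 3 WT libraries. Their mean was 54.8% of the mean of WT replicates 1 and 2. The pooled log2 fold change was −0.87 (SE 0.071, edgeR's adjusted p = 7.07e-06) and −0.81 with 3 WT libraries (4.36e-05). TP53INP1 (chromosome 8, 94925972 to 94949378 on GRCh38), a stress protein that helps p53 towards apoptosis, fell from 7.45 and 7.93 CPM to between 2.96 and 4.82 (median 3.52), with 9.77 in WT replicate 3. Its log2 fold change was −1.05 (SE 0.179, edgeR's adjusted p = 0.0138), and −1.10 with 3 WT libraries (0.00848). It had been called in G245S alone (edgeR's adjusted p = 0.0399) and not in R273H alone (0.162), and R273H minus G245S was 0.17 on the log2 scale (95% confidence interval −0.28 to 0.61). Without WT replicate 1 its adjusted p was 0.165, and without WT replicate 2 it was 0.265.

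CDKN1A, which encodes the p21 inhibitor of cyclin-dependent kinases and is the best known arrest target, did not pass. It was at 14.9, 18.4 and 19.5 CPM in the 3 WT libraries and between 7.31 and 14.2 (median 11.6) in the mutants, so the groups did not overlap. The log2 fold change was −0.59 (SE 0.170, edgeR's adjusted p = 0.335) and −0.63 with 3 WT libraries (0.231). GADD45A (−0.53, edgeR's adjusted p = 0.159), BTG2 (−0.54, 0.399) and PLK3 (−0.57, 0.565), other genes that slow the cycle, had values of similar size without a call. Those values lay at or below the lower quartile of the 13 tested arrest genes (−0.53), whose median was −0.18.

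In the list of apoptosis and death receptors, PHLDA3, a membrane-bound inhibitor of AKT signalling, had the smallest adjusted p of all genes. It was at 28.1, 30.8 and 30.7 CPM in the 3 WT libraries and at 5.52 to 7.81 (median 6.68) in the mutants. PHLDA3 averaged in the mutants 22.5% of its mean in WT replicates 1 and 2. Its pooled log2 fold change was −2.14 (SE 0.115, edgeR's adjusted p = 3.31e-08), and −2.15 with 3 WT libraries (1.54e-08). AEN, a nuclease induced by p53, stood at 80.0, 82.0 and 78.9 CPM in WT and at 44.3 to 51.3 in the mutants (median 49.0). Its log2 fold change was −0.75 (SE 0.075, edgeR's adjusted p = 6.2e-05), and −0.74 with 3 WT libraries (4.91e-05). The WT libraries differed from each other by far less than from any mutant library. CYFIP2, a regulator of actin and a p53 target, showed the same picture at 42.7, 42.2 and 41.9 CPM against 21.7 to 25.1 (log2 fold change −0.86, SE 0.082, edgeR's adjusted p = 4.44e-05, and 3.27e-05 with 3 WT libraries). AEN, CYFIP2 and BBC3 below were named after their values were seen.

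The other called genes of this list act on the mitochondrial and the receptor route to cell death. BBC3 (PUMA), which frees BAX from its guards, fell by 0.65 on the log2 scale (SE 0.085, edgeR's adjusted p = 0.00124, and 0.00346 with 3 WT libraries), from 37.2 and 39.0 CPM to between 22.3 and 26.9, and WT replicate 3 also lay above the mutants. Without WT replicate 2 its adjusted p was 0.0554. TP53I3, a quinone reductase tied to oxidative stress, went from 17.9 and 19.7 CPM to between 6.66 and 10.2 (log2 fold change −1.12, SE 0.136, edgeR's adjusted p = 0.000607, and 0.000417 with 3 WT libraries). FAS, the receptor for FAS ligand, was at 5.15 and 6.65 CPM in WT replicates 1 and 2, at 3.49 in replicate 3 and at 1.61 to 2.95 in the mutants (median 2.14). The groups did not overlap, but WT replicate 3 lay near its floor of 2.09 CPM, so its level of FAS is uncertain. FAS was called in the pooled fit (log2 fold change −1.40, SE 0.232, edgeR's adjusted p = 0.0104, and 0.0219 with 3 WT libraries) and in R273H alone (0.0159), but not in G245S alone (0.147). Its adjusted p was 0.0623 without WT replicate 1 and 0.406 without WT replicate 2.

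EDA2R (chromosome X, 66595637 to 66639298), a receptor of the tumour necrosis factor family, was the called gene that differed most between the mutants. It was at 2.18, 3.45 and 2.09 CPM in the 3 WT libraries, at 0.689, 0.681 and 0.474 in R273H and at 0, 0 and 0.123 in G245S. The pooled log2 fold change was −3.07 (SE 0.556, edgeR's adjusted p = 0.0253), and −3.02 with 3 WT libraries (0.0233). EDA2R was called in G245S alone (edgeR's adjusted p = 0.00317) and not in R273H alone (0.0567). The R273H libraries lay above their floor of 3 counts and the G245S libraries below it. WT replicate 3, at 2.09 CPM, was itself at its floor of 3 counts, so its level of EDA2R is uncertain. R273H was higher than G245S by 3.54 (95% confidence interval 1.65 to 5.44, unadjusted p = 0.00109 in edgeR's test, adjusted 0.996), a fitted size that depends on the prior count because G245S was so close to 0. With 1 library left out, the call was lost without WT replicate 1 (adjusted p = 0.119), without WT replicate 2 (0.58), without G245S replicate 3 (0.0574) and without R273H replicate 3 (0.0664).

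Of the repair genes, DDB2, which finds ultraviolet damage in DNA, fell from 26.6 and 25 CPM (28.6 in WT replicate 3) to between 7.35 and 10.4 (median 9.32). The log2 fold change was −1.50 (SE 0.112, edgeR's adjusted p = 2.66e-06), and −1.53 with 3 WT libraries (1.23e-06). In metabolism, FDXR, the ferredoxin reductase of mitochondria, had a log2 fold change of −1.18 (SE 0.116, edgeR's adjusted p = 5.79e-05, and 0.000223 with 3 WT libraries), at 22.7 and 26.7 CPM in WT and 9.32 to 13.1 in the mutants. WT replicate 3 was at 16.8, between the other WT libraries and the mutants. DRAM1, a lysosomal protein of autophagy, fell by 1.82 (SE 0.247, edgeR's adjusted p = 0.00181, and 0.00117 with 3 WT libraries), from 7.90 and 4.86 CPM to between 1.42 and 2.7. The WT libraries were far apart for DRAM1, and without replicate 1 its adjusted p was 0.195. RPS27L, a ribosomal protein related to RPS27 and induced by p53, was at 151, 125 and 178 CPM in WT and at 73.7 to 97.9 in the mutants (log2 fold change −0.67, SE 0.099, edgeR's adjusted p = 0.00359, and 0.00202 with 3 WT libraries). The groups did not overlap, but without WT replicate 1 the adjusted p was 0.229.

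**Figure D2:**
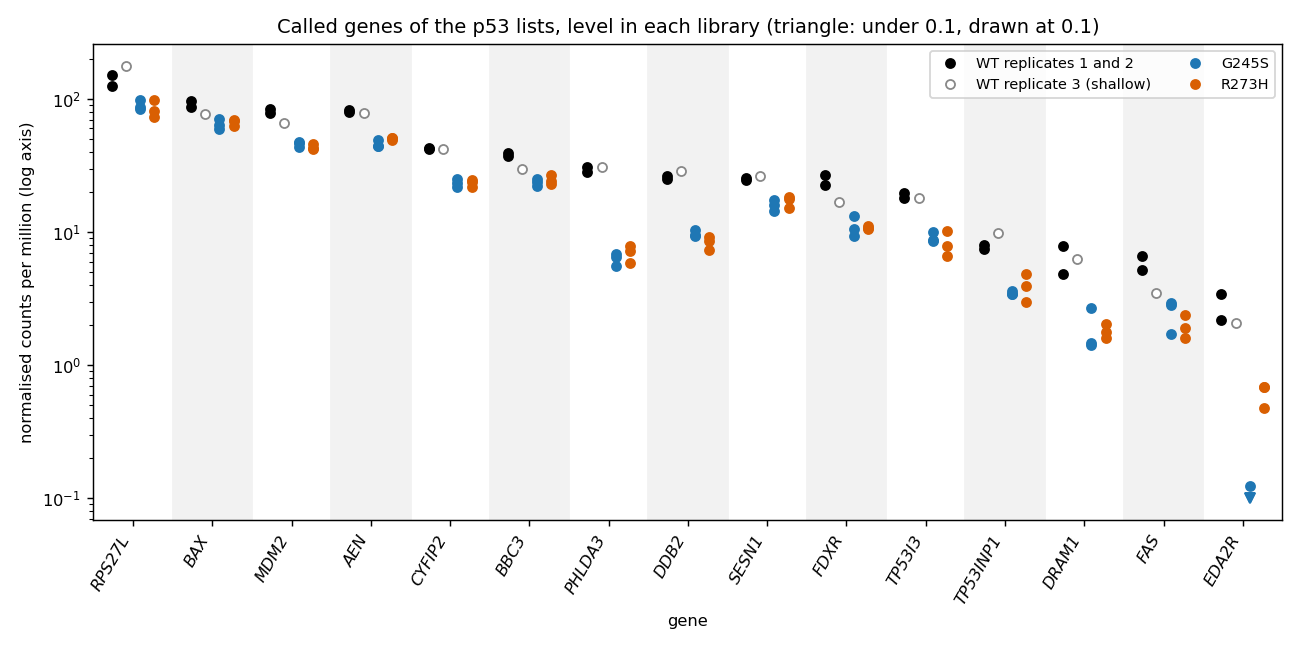
Level in CPM (vertical log axis) of the 15 called genes of the p53 lists in each library, ordered by WT level, with black points for WT replicates 1 and 2, open grey points for WT replicate 3, blue for G245S and orange for R273H. In every gene the mutant points lie below all 3 WT points, and in EDA2R the G245S points, at 0, 0 and 0.123, lie below those of R273H.

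Pooling brought 9 genes past the threshold that neither mutant passed alone, with single-mutant adjusted p between 0.0594 and 0.228. Their changes were between 0.391 and 0.803 in size, where the 31 genes reached up to 3.07. The single-mutant and pooled values were close in each of them, and the pooled intervals were the narrowest. Both follow in part from the choice of genes. The pooled fit holds the libraries of both single-mutant fits and counts a difference between the mutants as spread. Missing the threshold alone does not show that a mutant left a gene unchanged. A p53 target of the death list, BAX (chromosome 19, 48954815 to 48961798 on GRCh38), which opens the outer mitochondrial membrane, was at 97.0 and 87.0 CPM in WT replicates 1 and 2, at 76.8 in replicate 3 and at 59.8 to 71.1 in the mutants (median 66.0). The groups did not overlap. BAX had log2 fold changes of −0.50 in G245S (edgeR's adjusted p = 0.0782) and −0.47 in R273H (0.072), and of −0.49 in the pooled fit (SE 0.079, edgeR's adjusted p = 0.00876). With all 3 WT libraries the pooled adjusted p was 0.0326, and without WT replicate 1 it was 0.31. SESN1 (chromosome 6, 108984309 to 109094846), a stress sensor that restrains growth signalling, was nearly even in WT at 25.3, 24.7 and 26.5 CPM and lay at 14.5 to 18.5 in the mutants (median 16.8). Its pooled log2 fold change was −0.59 (SE 0.102, edgeR's adjusted p = 0.0162, and 0.0098 with 3 WT libraries), where G245S alone gave 0.078 and R273H alone 0.153. Without WT replicate 1 the adjusted p was 0.272 and without WT replicate 2 it was 0.239, although SESN1 in WT replicate 3, outside the main fit, was above every mutant library.

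TYMS, thymidylate synthase of nucleotide synthesis, was at 142 and 131 CPM in WT replicates 1 and 2, at 126 in replicate 3 and at 97.4 to 108 in the mutants (median 101). Its pooled log2 fold change was −0.43 (SE 0.068, edgeR's adjusted p = 0.00785, and 0.0159 with 3 WT libraries). Without WT replicate 1 the adjusted p of TYMS was 0.256 and without WT replicate 2 it was 0.0554. In this test TYMS was the only called gene among 46 S phase genes driven by E2F (DESeq2 also called PCNA), a list in which 37 were lower by sign with a median of −0.10 (−0.04 with 3 WT libraries). At an unadjusted p under 0.05 in edgeR's test, 13 of the 46 were lower and 1 higher, against 640 and 515 of all 16398 genes. PCNA, the sliding clamp of DNA synthesis, had −0.34 (edgeR's adjusted p = 0.149), at 354 to 406 CPM in the 3 WT libraries and 280 to 328 in the mutants. The antisense neighbour of TYMS, TYMSOS (chromosome 18, 630886 to 658352, minus strand), overlaps the start of TYMS (657653 to 673578, plus strand) by 700 bases. TYMSOS went from 10.1 and 9.34 CPM to between 2.84 and 5.01 (log2 fold change −1.25, SE 0.179, edgeR's adjusted p = 0.00281, and 0.0028 with 3 WT libraries). Reads were counted by strand, so reads of one are not expected in the count of the other. The adjusted p of TYMSOS without WT replicate 1 was 0.119.

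CKMT1A and CKMT1B encode the ubiquitous mitochondrial creatine kinase from near-identical copies on chromosome 15 (43692886 to 43699222 and 43593054 to 43604901), and reads that match both were shared as fractions, so the copies are not independent and neither value is certain. CKMT1A went from 18.9 and 15.1 CPM to between 8.60 and 10.8 (log2 fold change −0.80, SE 0.127, edgeR's adjusted p = 0.0077, and 0.013 with 3 WT libraries). CKMT1B went from 18.9 and 15.6 CPM to between 8.17 and 11.4 (log2 fold change −0.78, SE 0.127, edgeR's adjusted p = 0.0098, and 0.042 with 3 WT libraries). In WT replicate 3 CKMT1B was at 11.2, inside the mutant range, and CKMT1A at 13.3, above it. Without WT replicate 1 the adjusted p was 0.344 for CKMT1A and 0.366 for CKMT1B.

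CARMIL2 (chromosome 16, 67644988 to 67657569), a regulator of actin capping and of CD28 signalling in T cells, was the only gene of the 9 that was higher. It was at 20.3, 23.0 and 19.5 CPM in WT and at 27.9 to 33.2 in the mutants (log2 fold change 0.51, SE 0.096, edgeR's adjusted p = 0.0327, and 0.0192 with 3 WT libraries). The groups did not overlap. CARMIL2 lost its call without either WT library (adjusted p of 0.428 without replicate 1 and 0.146 without replicate 2) and without 4 of the 6 mutant libraries, namely replicates 1 and 3 of each mutant, with an adjusted p of up to 0.0906.

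TTYH3 (chromosome 7, 2631961 to 2664802), a membrane protein of the tweety family, and SAC3D1 (chromosome 11, 65040901 to 65044828), a centrosomal protein, passed only with 2 WT libraries. TTYH3 was at 48.5 and 42.7 CPM in WT replicates 1 and 2 and at 29.8 to 35.2 in the mutants, with 34.9 in WT replicate 3. Its log2 fold change was −0.50 (SE 0.083, edgeR's adjusted p = 0.0104) and −0.45 with 3 WT libraries (0.0522). Without WT replicate 1 the adjusted p of TTYH3 was 0.366. SAC3D1 was at 148 and 137 CPM and at 100 to 114 in the mutants, with 106 in WT replicate 3. Its log2 fold change was −0.39 (SE 0.072, edgeR's adjusted p = 0.0294) and −0.30 with 3 WT libraries (0.307). In both, the third WT library lay inside the range of the mutants. SAC3D1 also lost its call without WT replicate 1 (0.419), WT replicate 2 (0.146), G245S replicate 3, R273H replicate 1 (0.0956) or R273H replicate 3.

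**Figure D3:**
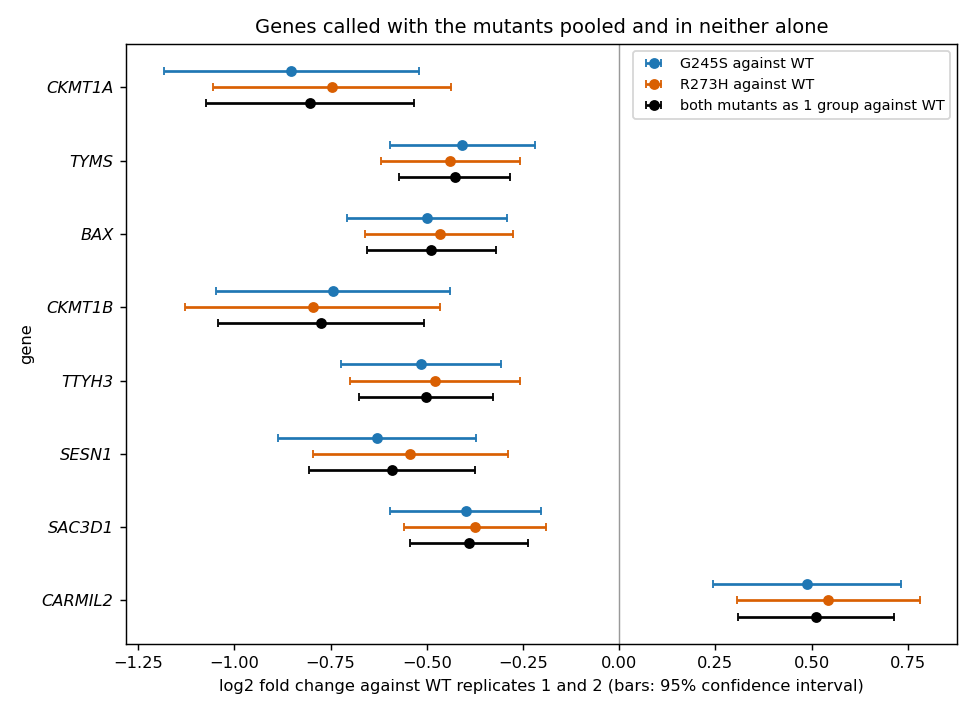
Log2 fold change against WT replicates 1 and 2 (horizontal axis) with 95% confidence intervals as bars, for 8 of the 9 genes (vertical axis) called in the pooled fit and in neither single-mutant fit, with blue for G245S, orange for R273H and black for both as 1 group. The 3 estimates of each gene lie close together, for example −0.50, −0.47 and −0.49 for BAX, and the pooled bar is the shortest. Both follow in part from how the genes were picked.

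Outside the p53 lists 16 genes were called, 12 lower and 4 higher. The largest fall was in LNCTAM34A, the antisense RNA of the locus that encodes miR-34a, a microRNA induced by p53. LNCTAM34A (chromosome 1, 9181588 to 9198023, plus strand) was at 2.98, 3.07 and 3.49 CPM in the 3 WT libraries, at 0.914, 0.385 and 0.123 in G245S and at 0.115, 0.272 and 0.237 in R273H. Its pooled log2 fold change was −3.03 (SE 0.436, edgeR's adjusted p = 0.00281, and 0.00188 with 3 WT libraries), with a call in R273H alone (0.00133) and not in G245S alone (0.0673). In all mutant libraries but G245S replicate 1 it was at or below the floor of 3 counts, and the adjusted p was 0.0795 without WT replicate 1 and 0.0975 without WT replicate 2. The host transcript on the other strand, MIR34AHG (9139555 to 9202826, minus strand), was at 3.55, 4.73 and 4.19 CPM in WT and at 0.272 to 2.13 in the mutants (log2 fold change −2.02, SE 0.402). MIR34AHG passed with 3 WT libraries (edgeR's adjusted p = 0.042) and in R273H alone (0.032), and had 0.0603 in the pooled fit with 2 WT libraries. The 2 genes overlap by 16436 bases and were counted by strand. LNCTAM34A and MIR34AHG were named after their values were seen.

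ACTA2, smooth muscle actin, and FAS overlap by 37527 bases on opposite strands of chromosome 10 (88934822 to 88991339 on the minus strand and 88953813 to 89029605 on the plus strand), and both fell. ACTA2 was at 22, 24.6 and 22.3 CPM in WT and at 3.76 to 10.3 in the mutants (median 6.77), with a pooled log2 fold change of −1.82 (SE 0.203, edgeR's adjusted p = 0.000225, and 0.0002 with 3 WT libraries). In edgeR's quasi-likelihood test it was the only called gene of 28 contractile genes, whose median was −0.09 (−0.18 with 3 WT libraries), while DESeq2 and the exact test each called 2 of them, ACTA2 and the tropomyosin TPM4. ACTA2 was higher in R273H than in G245S by 0.56 (95% confidence interval 0.067 to 1.05, unadjusted p = 0.0283 in edgeR's test, adjusted 0.996).

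The promoters of the called genes were read for the p53 response element, a pair of adjoining half-sites of 10 bases each and the sequence through which p53 binds its targets. The windows, from RefSeq on GRCh38.p14, run from 250 bases before to 50 after the start site. A match was allowed up to 2 mismatches in 20 bases, with the central C and G of each half-site kept, and the consensus is the same on both strands. Such a match was found in 74 of 27305 promoters (0.271%) and in 3 of the 26 called genes with a promoter in the table. The 3 are shown with the match in capitals and 5 bases on each side. The match in LNCTAM34A has 0 mismatches and those in ACTA2 and AEN have 2.
LNCTAM34A (chr1:9182139-9182168, plus strand): gctcgGAACAAGCCCAGGCAAGCCCaggca
ACTA2 (chr10:88991304-88991333, minus strand): tggctTGGCTTGTCAGGGCTTGTCCaggag
AEN (chr15:88621301-88621330, plus strand): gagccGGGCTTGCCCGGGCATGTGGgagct
The match begins 60 bases before the start site in LNCTAM34A, 34 before it in AEN and 9 after it in ACTA2, by the start sites of RefSeq. The gene as counted starts further upstream in LNCTAM34A, at 9181588, so there the match lies inside its span. The letters are a description of these windows, and a gene without a match may hold a site elsewhere.

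Among the other lower genes, PYGL, liver glycogen phosphorylase, was at 96.7, 88.0 and 74.7 CPM in WT and at 53.5 to 61.6 in the mutants (log2 fold change −0.68, SE 0.075, edgeR's adjusted p = 0.000202, and 0.00108 with 3 WT libraries). The groups did not overlap. ENHO, which encodes the secreted peptide adropin, fell from 25.9 and 21.2 CPM to between 8.29 and 13.4 (log2 fold change −1.18, SE 0.144, edgeR's adjusted p = 0.000609, and 0.00216 with 3 WT libraries), with 14.7 in WT replicate 3 and an adjusted p of 0.0588 without WT replicate 1. BRSK2, a kinase related to AMPK and named after its values were seen, was at 4.93, 6.40 and 4.89 CPM in WT and at 1.12 to 2.08 in the mutants (log2 fold change −1.83, SE 0.237, edgeR's adjusted p = 0.00114, and 0.000973 with 3 WT libraries). The adjusted p of BRSK2 without WT replicate 2 was 0.0797.

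The 4 higher genes rose by 0.51 to 0.75 on the log2 scale. LINC00665, a long noncoding RNA, rose from 14.9 and 13.7 CPM (14.7 in WT replicate 3) to between 22.5 and 25.8 (log2 fold change 0.75, SE 0.102, edgeR's adjusted p = 0.00181, and 0.00117 with 3 WT libraries). Its mean in the mutants was 168% of that in WT replicates 1 and 2. SERPINF1, a secreted inhibitor of new vessel growth, rose from 51.9 and 47.3 CPM (35.6 in WT replicate 3) to between 69.8 and 83.8 (log2 fold change 0.61, SE 0.087, edgeR's adjusted p = 0.00281, and 0.00234 with 3 WT libraries). Both were called in each mutant alone and with 3 WT libraries. Without WT replicate 2 their adjusted p was 0.0975 and 0.146. ASS1, argininosuccinate synthase of arginine synthesis and the only called gene of 34 of the integrated stress response, was at 43.2 and 42.2 CPM in WT replicates 1 and 2 and at 59.5 to 72.6 in the mutants (log2 fold change 0.61, SE 0.090, edgeR's adjusted p = 0.00341). In WT replicate 3 it was at 62.8, inside the mutant range, and with all 3 WT libraries ASS1 did not pass (0.50, edgeR's adjusted p = 0.0681). It had an adjusted p of 0.0795 without WT replicate 1 and 0.125 without WT replicate 2. CARMIL2 was the remaining one.

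**Figure D4:**
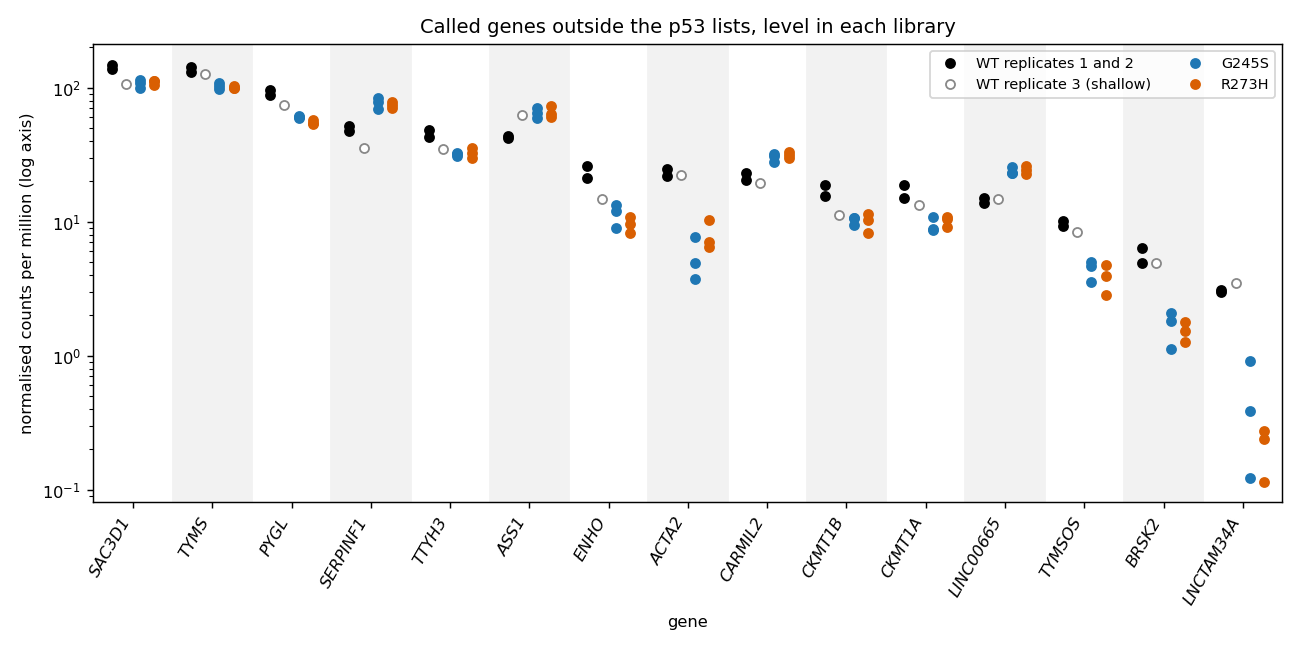
Level in CPM (vertical log axis) of 15 of the 16 called genes outside the p53 lists in each library, ordered by WT level, with black points for WT replicates 1 and 2, open grey for WT replicate 3, blue for G245S and orange for R273H. The mutant points lie above WT replicates 1 and 2 in SERPINF1, ASS1, CARMIL2 and LINC00665 and below them in the other 11, while the open point of WT replicate 3 falls among the mutants in SAC3D1, TTYH3, ASS1 and CKMT1B.

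Other pathways showed few calls. None of 48 mitotic genes (median −0.03), 75 genes of oxidative phosphorylation encoded in the nucleus (0.00), 77 of the mitochondrial ribosome (0.01), 24 of cholesterol synthesis (0.07), 31 of hypoxia and glycolysis (0.01) or 25 of the interferon response (−0.03) passed in edgeR's test. With 3 WT libraries these medians were 0.00, −0.01, 0.03, 0.07, 0.04 and −0.17, so that of the interferon response moved most. At an unadjusted p under 0.05 there were 4, 0, 1, 5, 2 and 3 genes in these lists, and DESeq2 and edgeR's exact test also called 0 in each. Of 80 genes of the cytosolic ribosome list, 69 were lower by sign (median −0.09, and −0.15 with 3 WT libraries), and RPS27L alone was called. Of 13 mRNAs encoded in mitochondria, 12 were higher by sign and MT-ATP8 lower, with a median of 0.30, which was 0.09 with 3 WT libraries. None passed, with 5 at an unadjusted p under 0.05 and 0 in DESeq2 and the exact test. MT-CO3, a subunit of cytochrome c oxidase, had the largest value of these (0.44, edgeR's adjusted p = 0.609). The share of counts on mitochondrial genes was 4.47% and 5.71% in WT replicates 1 and 2 and 7.02% in replicate 3, with 4.83% to 8.34% in the mutants, so the groups overlapped.

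WT replicate 3, which the main fit did not use, lay beyond all 6 mutant libraries on the side of the other WT libraries in 27 of the 31 called genes, against 38.8% of all genes tested. The 4 others were ASS1, CKMT1B, TTYH3 and SAC3D1, named above. Adding that library to the fit removed ASS1, TTYH3 and SAC3D1 and added HMGN5, MIR34AHG and IKBIP. HMGN5, a nucleosome-binding protein, was at 77.2, 94.4 and 115 CPM in WT and at 52.3 to 70.1 in the mutants (log2 fold change −0.57, SE 0.109, edgeR's adjusted p = 0.0395 with 3 WT libraries, and −0.48, 0.0744 with 2). IKBIP, a p53 target of the death list that shares a promoter region with APAF1, was at 42.6, 42.6 and 45.4 CPM in WT and at 27.8 to 34.3 in the mutants (−0.45, SE 0.088, edgeR's adjusted p = 0.0479 with 3 WT libraries, and −0.43, 0.0744 with 2). Neither gene's groups overlapped. Both were named after their values were seen. RPL10P3, a ribosomal protein pseudogene whose reads can be shared with its parent gene, was called in R273H alone (edgeR's adjusted p = 0.0147) and not in the pooled fit (1.68, 0.0744).

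**Figure D5:**
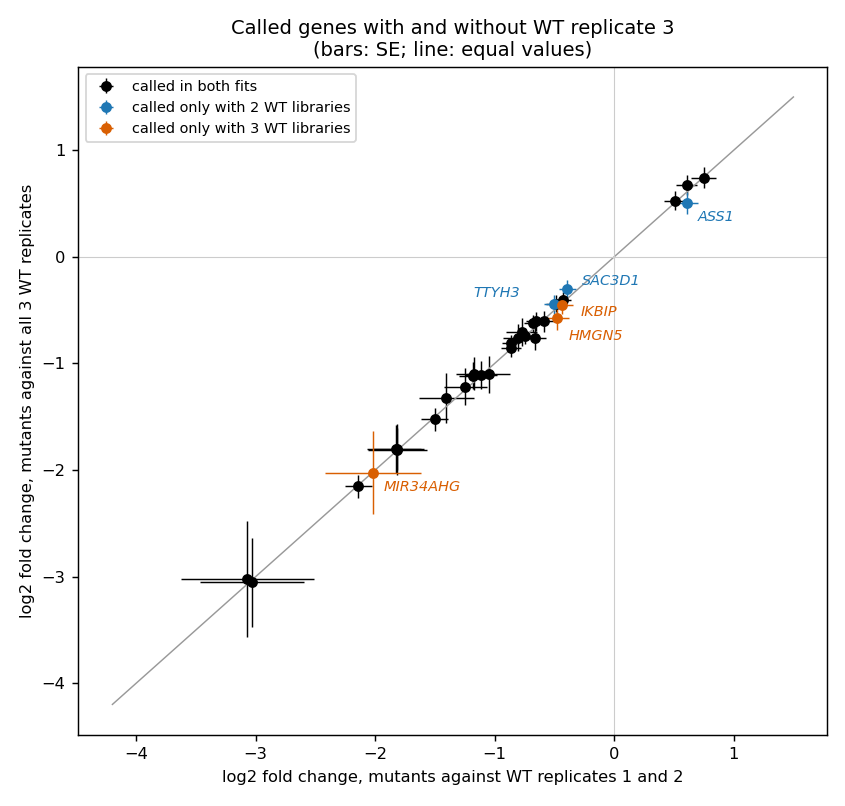
Pooled log2 fold change with WT replicates 1 and 2 (horizontal axis) and with all 3 WT replicates (vertical axis) for 33 of the 34 genes called in either fit, with SE bars and the line of equal values. The genes called in both fits (black, 27 of 28 shown) lie near the line, and ASS1, TTYH3 and SAC3D1 (blue, called only with 2 WT libraries) lie nearer to 0 with 3 WT libraries.

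Between the mutants, 0 of 16398 genes passed in edgeR's test of R273H against G245S (0.0%), with 778 at an unadjusted p under 0.05. DESeq2 called 1 gene and edgeR's exact test 3. Over the 31 genes called in the pooled fit, the median half-width of the 95% confidence interval of the difference was 0.243 on the log2 scale, and in 2 of them, EDA2R and ACTA2, the interval left out 0. That width is for 1 gene without adjustment over all genes tested. EDA2R and ACTA2 differed by more and still had an adjusted p of 0.996 in edgeR's test. With 3 libraries each, differences between the mutants above such a width could therefore also be missed.

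Of the 31 genes, 27 kept their call when any 1 mutant library was left out, 13 without WT replicate 1, 17 without WT replicate 2, and 9 without either, each left out in turn. The 9 were PHLDA3, DDB2, MDM2, CYFIP2, FDXR, AEN, PYGL, ACTA2 and TP53I3, and these were also called under all 21 alternatives run. With only 1 WT library left, that library is assumed to vary as the mutant libraries do.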

How the data were processed

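The authors deposited expected counts per gene on GRCh38 for 9 libraries, with fractional sharing of multi-mapping reads and no normalization. They filtered reads with FastP 0.24.0, aligned them with STAR 2.7.11, collapsed duplicate molecules with UMICollapse, and counted exons and 3′ UTRs by strand with featureCounts of Subread 2.1.1. Another 9 columns of per-sample CPM were not used. Counts were rounded. WT replicate 3 was left out of the main fit by depth. Its total lay below 4096044 counts, the limit set at 0.5 times the median over the other 8 libraries. The study likewise excluded 1 WT replicate, and gave both poor sample quality and low reads as its grounds.

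Genes were filtered with filterByExpr, scaled with TMM and tested in edgeR 4.0.16 (R 4.3.3) by its quasi-likelihood test. P-values were adjusted by Benjamini-Hochberg over all genes of a fit. The 6 mutant libraries formed 1 group, and each mutant alone, and R273H against G245S in 1 fit of 3 groups, were fitted alongside. Intervals are 95% intervals from the test's SE. Printed CPM are TMM-scaled over all 9 libraries. DESeq2 1.42.0 and limma 3.58.1 served as alternatives, python 3.11.15 and matplotlib 3.10.9 for tables and plots. The steps were tested on simulated data. The replicates are biological replicates of 1 line per p53 form, so p-values measure the spread between cultures of these lines.

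The members, the 20 gene lists and the tests were chosen with earlier results of these data known. Genes named are CDKN1A and MDM2, up to 4 called genes per p53 list, up to 8 highest and 8 lowest other called genes of at least 5 CPM without overlap, up to 10 called in both WT sets and in neither mutant alone, and others said to be named after their values were seen. The level of the transgene's own gene and the values of 1 called gene are not reported here.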

Additional observations from a re-analysis of the deposited data

Results flagged for a closer look

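The level of LNCTAM34A, the antisense RNA of the miR-34a locus, in G245S replicate 1 was 0.914 CPM, where the other 5 mutant libraries were between 0.115 and 0.385. Its gap to the nearest of them was 0.662 of the whole range, above Dixon's 95% critical value for 6 values. Among 56 sets of values examined in this way 1 was picked out, and chance alone would pick about 1 in 20, or 2.8. All 6 mutant values stayed below the 3 WT values.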

How the results depend on the processing

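None of the genes called in either pooled fit, nor CDKN1A, changed direction under any of the 21 alternatives that could test it. The pooled count of 31 was 17 with WT replicates 1 and 3, 88 with edgeR's exact test and 128 with no filter on low counts, and 17 to 42 when 1 library was left out. The 28 genes called with both WT sets became 69 with the exact test, 101 with no filter and 13 to 35 when 1 library was left out. The 9 genes called in neither mutant alone became 14 with all 3 WT libraries, 22 with DESeq2, 18 with the exact test, 17 with no filter, 4 in 1 fit of the 3 groups, 18 with protein-coding genes only and 2 to 21 when 1 library was left out. The 0 genes between R273H and G245S became 1 with DESeq2, 3 with the exact test and 118 with no filter. The cause was not tested. With the replicate block the pooled count was 32, of which 26 were shared with the main fit, 4 genes were called in neither mutant alone, and 2 between the mutants. The replicate numbers were not taken to pair the libraries, since same-numbered G245S and R273H libraries had correlated deviations of 0.113, 0.254 and −0.033, and not every library correlated best with its own number. DESeq2 called 46 genes and protein-coding genes alone 46. Library-size scaling moved the median of all genes to 0.02. The depth of WT replicate 3 limits it to values above 2.09 CPM.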
